A study of Homo sapiens with 10 samples.

Results

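The hypoxia response genes HIF1A, EPAS1, EGLN3, VEGFA, ADM, ANGPTL4, NDRG1, BNIP3, CA9 and CA12 were read out in 2 human bladder cancer cell lines, T24 and T24R2. These 10 genes were taken by name from the count tables, which list 61533 genes, and each was found once by its Ensembl identifier. T24 is an established line from a urothelial carcinoma of the bladder and is sensitive to cisplatin, a platinum drug that cross-links DNA. T24R2 is the cisplatin-resistant line derived from T24 by repeated rounds of the drug. RNA sequencing was done on 5 libraries of each line, all from day 3 of culture, in RPMI medium with serum and antibiotics at an incubator's usual carbon dioxide level, and no library is described as grown at low oxygen. The labels give both lines the same medium, whereas the study's methods keep T24R2 in medium with cisplatin, so the line and any drug present cannot be told apart. T24R2 is a single derived line, so each change below is a difference between these 2 lines. The study describes its experiments in general as independent repeats, but no label says that the libraries of a line came from separate cultures, and p-values then measure only the spread between these libraries, which may be technical.

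Cells sense oxygen through prolyl hydroxylases of the EGLN family, which mark the alpha subunits of hypoxia-inducible factor (HIF) for the VHL ubiquitin ligase and destruction. When oxygen is short the alpha subunits HIF1A and EPAS1 (HIF-2 alpha) escape, pair with ARNT and switch on genes for glycolysis, blood vessel growth, mitophagy and pH control. Control of HIF is thus mostly at the protein, and transcript levels of the subunits do not report its activity. In many solid tumours, CA9 is a widely used tissue marker of hypoxia.

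The targets of HIF in this set were mostly lower in T24R2, several of them nearly to nothing, while the transcripts of the factor itself changed little. ANGPTL4, CA9 and CA12 fell from clearly detected levels to a handful of reads, ADM fell to 12.6% of its T24 level and BNIP3 to 28.6%. EGLN3 also fell. NDRG1 went the other way and rose to 165.4% of its T24 level. HIF1A, EPAS1 and VEGFA moved by less than the minimum set for a call. A gene was called when its adjusted p was under 0.05 by edgeR's quasi-likelihood test, adjusted by Benjamini-Hochberg, and its log2 fold change was over 0.5 in size. By that rule 6 of the 10 genes were lower in T24R2, where 26.5% of all 16181 tested genes were, and 1 was higher, where 24.9% were. Calls in either direction came to 7 of the 10, against 51.4% of all tested genes. The 2 lines did not overlap in normalised level for any of the 10 genes, but this also held for 61.2% of all tested genes. The median log2 fold change of the 10 genes was -1.38, beside 0.01 over all tested genes. These genes and the lists below were chosen with earlier results of these data known, so such shares are description and no test. All 10 passed the filter on low counts, although ANGPTL4, CA9 and CA12 could pass it only through T24, where they were high.

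The 5 libraries of T24 held 9257843 to 10247941 counts and those of T24R2 held 9591379 to 10840954, and levels are given as counts per 1000000 counts (CPM) after TMM scaling. KRT7, KRT8 and KRT18, keratins of simple epithelia, stood above 642 CPM in every library. KRT19, another such keratin, was at 267 ± 7.227 CPM in T24 and 0.08872 ± 0.1245 CPM in T24R2 (SD, n = 5 each). The urothelial differentiation markers KRT20 and UPK1B and the adhesion protein CDH1 had at most 2 counts in any library. UPK2, another urothelial differentiation marker, had 83 to 104 counts per T24 library and 15 to 39 per T24R2 library. All 7 tested genes of the 13 urothelial and epithelial markers were called lower in T24R2, where 26.5% of all tested genes were. Among them was GATA3, at 22.1 ± 2.004 CPM for T24 and 0.214 ± 0.210 CPM for T24R2 (SD over 5 libraries each). Of 10 markers of fibroblasts, endothelium and immune cells, 3 were tested and all 3 were called lower in T24R2, beside the same 26.5%. The summed level of the 10 ran from 232.3 to 285 CPM in T24 and from 2.32 to 6.24 CPM in T24R2. The endothelial cadherin CDH5 made up nearly all of the T24 sum, with a mean of 239 CPM, and had a mean of 0.559 CPM in T24R2, while COL1A2, DCN and LUM had at most 1 count in any library. KRT19, GATA3, EPCAM, COL1A1, PECAM1 and CDH5 could pass the filter on low counts only through their T24 counts. These include all 3 tested markers of fibroblasts, endothelium and immune cells, so the filter favoured a lower call for them. The immune marker PTPRC did not pass it and went the other way, with 2 counts in T24 and 26 in T24R2. CD3E and CD68, which also did not pass, overlapped between the lines. The markers that passed moved in the direction of most of the hypoxia response genes, and their part in the changes was not tested. As in any bulk sample, fewer cells of a type and less RNA per cell cannot be told apart.

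Promoter sequences of 4 of the genes that fell are shown because each holds the core letters of the hypoxia response element, the DNA word that HIF binds. The windows are from RefSeq on GRCh38.p14 and run from 250 bases before the annotated start to 50 bases after it, read 5′ to 3′ on the gene's strand. Capitals mark ACGTG or GCGTG on either strand, so that CACGT and CACGC are the same words on the other strand, and matches may overlap. The CA9 window is chr9:35673678-35673977 on the plus strand, that of BNIP3 is chr10:131981874-131982173 on the minus strand, that of ANGPTL4 is chr19:8363905-8364204 on the plus strand and that of ADM is chr11:10304823-10305122 on the plus strand.
CA9: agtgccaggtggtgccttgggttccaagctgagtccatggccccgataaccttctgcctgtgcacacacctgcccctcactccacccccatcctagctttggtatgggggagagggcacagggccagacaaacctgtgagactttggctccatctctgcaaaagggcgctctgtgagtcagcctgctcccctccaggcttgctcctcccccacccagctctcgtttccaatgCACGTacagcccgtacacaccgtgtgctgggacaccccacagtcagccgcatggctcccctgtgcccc
BNIP3: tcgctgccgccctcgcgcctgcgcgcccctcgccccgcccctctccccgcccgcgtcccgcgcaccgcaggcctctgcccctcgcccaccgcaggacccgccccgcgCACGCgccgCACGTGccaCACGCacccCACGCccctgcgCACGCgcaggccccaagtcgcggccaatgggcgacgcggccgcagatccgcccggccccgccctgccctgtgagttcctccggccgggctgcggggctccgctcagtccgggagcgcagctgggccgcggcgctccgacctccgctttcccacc
ANGPTL4: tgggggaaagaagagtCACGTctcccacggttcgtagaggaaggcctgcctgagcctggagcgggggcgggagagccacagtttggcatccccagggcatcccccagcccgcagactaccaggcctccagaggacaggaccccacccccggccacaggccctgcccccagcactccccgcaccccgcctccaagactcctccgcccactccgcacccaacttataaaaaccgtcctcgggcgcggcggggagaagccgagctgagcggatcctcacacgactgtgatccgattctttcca
ADM: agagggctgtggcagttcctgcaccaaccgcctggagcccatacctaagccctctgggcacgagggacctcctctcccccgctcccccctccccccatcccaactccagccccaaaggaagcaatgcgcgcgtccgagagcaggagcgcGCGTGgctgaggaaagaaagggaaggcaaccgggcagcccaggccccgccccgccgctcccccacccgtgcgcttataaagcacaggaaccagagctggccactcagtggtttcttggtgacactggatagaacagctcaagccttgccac
The single match of CA9 began at position -18 from the RefSeq start, counted as 0, while that of ANGPTL4 lay far upstream at -234 and that of ADM at -101. BNIP3 held 6 matches packed into 1 short stretch, 2 of ACGTG and 4 of GCGTG, and 2 of them overlap as a palindrome. RefSeq windows were available for 8 of the 10 genes, VEGFA and NDRG1 having none in the table used. Either core was found in 7 of these 8 genes, in all but EGLN3, and in 48.4% of 35116 windows of the same length over the genome. The 8 genes had 9 windows, since HIF1A had 2, and its second window held neither core. Counts per gene are thus not quite like shares per window. ACGTG alone was in 3 of the 8 genes and in 21.4% of all windows, and GCGTG in 5 of the 8 and in 36.5% of all windows. The members' windows were mostly richer in G and C than the typical window, from 62 to 80.7% apart from the second HIF1A window at 31.7%, beside a median of 58.7%. HIF1A and EPAS1, which were not called, held the core GCGTG as well. All 8 genes with a window were lower in T24R2, and VEGFA and NDRG1, which were higher, had no window. Whether a match separates genes that fell from genes that did not was thus not tested. A match is a string of letters and no measure of binding.

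HIF1A (ENSG00000100644.17, chr14:61695513-61748259, plus strand) encodes the alpha subunit of HIF-1. In T24 its level was 309.4, 295.2, 317.4, 308.8 and 317.9 CPM in replicates 1 to 5, and in T24R2 it was 227.5, 226.3, 247.5, 231.9 and 221.7 CPM. Every T24R2 library was below every T24 library, but by a modest margin. The log2 fold change was -0.42 ± 0.04 (SE; adjusted p = 2.2e-11, edgeR's quasi-likelihood test, adjusted by Benjamini-Hochberg), which is under the minimum for a call. EPAS1 (ENSG00000116016.14, chr2:46293667-46386697, plus strand), the alpha subunit of HIF-2, moved by nearly the same amount. Its level was 101.4, 102.5, 102, 100.9 and 102.7 CPM in T24 and 79.5, 64.3, 73.4, 81.0 and 77.7 CPM in T24R2. The T24 libraries were within 2 CPM of each other and all above the T24R2 libraries, which spread more widely. The log2 fold change of EPAS1 was -0.44 ± 0.06 (SE; adjusted p = 4.4e-09, edgeR). Per kilobase of exon, the log2 ratio of EPAS1 to HIF1A was -2.10 ± 0.04 for T24 libraries and -2.12 ± 0.15 for those of T24R2 (SD, 5 each). Between them lay -0.02, which an exact two-sided permutation test did not separate from 0 (p = 0.746, adjusted p = 0.746 over 3 ratios). The balance of the 2 alpha transcripts thus differed by less than the spread between libraries.

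EGLN3 (ENSG00000129521.15, chr14:33924227-34462774, minus strand) encodes PHD3, a prolyl hydroxylase that is itself a HIF target and so takes part in a feedback loop. It had the lowest level per kilobase of the 10 genes in T24 and rested on 22 to 52 counts per T24 library and 14 to 19 per T24R2 library. Its levels were 2.28, 5.47, 2.63, 2.47 and 2.48 CPM in T24 and 1.28, 1.56, 1.82, 1.51 and 1.77 CPM in T24R2. The lines did not overlap, but T24 replicate 2 stood well above the other T24 libraries, which were close together. The log2 fold change was -0.95 ± 0.28 (SE; adjusted p = 0.0027, edgeR), and it was -0.64 without T24 replicate 2, still called. EGLN1, which encodes PHD2, the main oxygen sensor of most cells, went the other way, from 16.7 ± 0.991 to 23.6 ± 3.31 CPM (SD, n = 5 each). Its log2 fold change of 0.50 ± 0.10 was only just past the minimum for a call. Of 18 alternative fits at that minimum, 11 lost the call, among them both DESeq2 estimates, limma-voom and 6 of the 10 fits that leave out a library, and its value ran from 0.44 to 0.66 over the 18. Per kilobase of exon, the log2 ratio of EGLN3 to EGLN1 went from -2.95 ± 0.45 for T24 to -4.30 ± 0.31 for T24R2 (SD over 5 libraries each). The difference of -1.35 passed the exact permutation test (two-sided p = 0.00794, which is as low as 5 against 5 libraries can go; adjusted p = 0.0238 over 3 ratios), and it ran from -1.46 to -1.15 when each library was left out in turn.

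**Figure D1:**
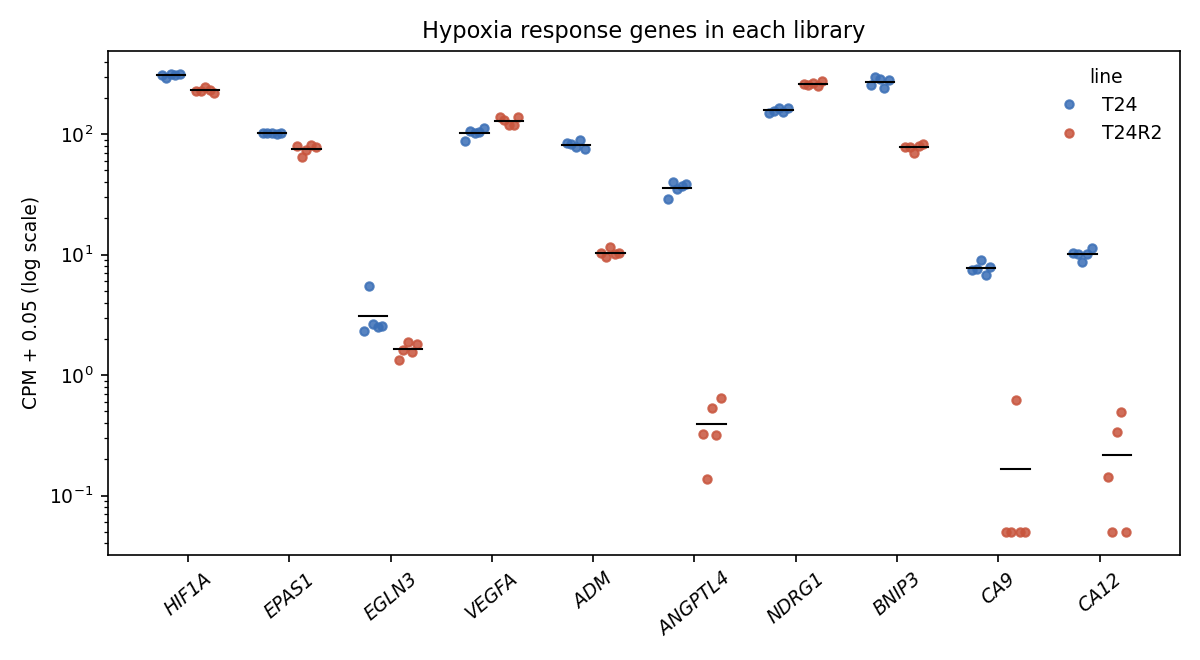
CPM + 0.05 on a log axis for the 10 hypoxia response genes, with 1 point per library (blue T24, red T24R2, 5 libraries each) and a black bar at the mean of the values. The points of HIF1A, EPAS1 and VEGFA lie close together in both lines, while those of ANGPTL4, CA9 and CA12 drop below 1 CPM in every T24R2 library.

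The 3 secreted factors behaved in 3 ways. VEGFA (ENSG00000112715.26, chr6:43770184-43786487, plus strand), the growth factor that drives vessel sprouting, was at 88.2, 106.4, 101.9, 103.4 and 113.1 CPM in T24 and at 138.6, 130.4, 119.8, 119.7 and 139 CPM in T24R2. All T24R2 libraries were above all T24 libraries, and the gap between the nearest pair was small. Its log2 fold change was 0.34 ± 0.06 (SE; adjusted p = 1.8e-06, edgeR), under the minimum for a call. ADM (ENSG00000148926.10, chr11:10305073-10307397, plus strand) encodes adrenomedullin, a peptide that widens vessels and supports endothelium. It was at 84.3, 82.7, 77.7, 89.1 and 75.6 CPM in T24 and at 10.3, 9.54, 11.4, 9.98 and 10.2 CPM in T24R2, so that the whole T24R2 range lay far below the lowest T24 library. The log2 fold change was -2.99 ± 0.08 (SE; adjusted p = 1.4e-30, edgeR), a level 7.96-fold lower. ANGPTL4 (ENSG00000167772.12, chr19:8363289-8374370, plus strand), a secreted inhibitor of lipoprotein lipase, had the most negative fitted change of the 10 over all libraries. In T24 it was at 29.0, 39.8, 34.9, 37.3 and 38.6 CPM, while the 5 T24R2 libraries held 3, 1, 5, 3 and 6 counts. Summed over libraries there were 1666 counts in T24 and 18 in T24R2, a ratio of 108 per unit of depth with an exact 95% interval of 68.2 to 183 that covers counting error only and overlaps the intervals of CA9 and CA12. The fitted log2 fold change was -6.70 ± 0.19 (SE; adjusted p = 7.6e-29, edgeR), and 179 of the 16181 tested genes had a lower value.

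NDRG1 and BNIP3 are both induced by hypoxia in many cells, and here they moved in opposite directions. NDRG1 (ENSG00000104419.17, minus strand), a stress-responsive gene that is also induced by iron depletion and by differentiation, was at 149.5, 157.1, 164.3, 151.8 and 166.3 CPM in T24 and at 260.7, 253.6, 265.6, 250.6 and 274.6 CPM in T24R2. The lowest T24R2 library was well above the highest T24 library. The log2 fold change was 0.73 ± 0.05 (SE; adjusted p = 1.4e-17, edgeR), the only call of a rise among the 10. BNIP3 (ENSG00000176171.12, chr10:131967684-131981967, minus strand), a mitochondrial outer membrane protein that recruits mitochondria to autophagy, was at 255.1, 299.2, 286.9, 240.3 and 280 CPM in T24 and at 78.9, 77.5, 70.3, 79.9 and 82.4 CPM in T24R2. Its ranges lay far apart, and the log2 fold change was -1.81 ± 0.06 (SE; adjusted p = 5.7e-28, edgeR), a level 3.50-fold lower. The paralog BNIP3L, another mitophagy receptor and HIF target, also fell, by 0.55 on the log2 scale. BNIP3 has processed pseudogene copies, and reads that match a copy equally well were not counted, since uniquely mapped reads were kept.

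Carbonic anhydrases hydrate carbon dioxide and, on the cell surface, help to regulate the acidity around tumour cells. CA9 (ENSG00000107159.14, chr9:35673928-35681159, plus strand), a surface enzyme and hypoxia marker, was at 7.37, 7.57, 8.91, 6.67 and 7.88 CPM in T24. In T24R2 it had 0 counts in 4 libraries and 6 counts in replicate 3, or 0.576 CPM. All T24R2 libraries were thus far below T24, and 1 library alone supplied the T24R2 reads. The sums of 356 and 6 counts gave a ratio of 69.3 per unit of depth (exact 95% interval 31.5 to 190, counting error only), and the fitted log2 fold change was -5.96 ± 0.41 (SE; adjusted p = 1.9e-16, edgeR). Without T24R2 replicate 3, CA9 had no counts in T24R2, and its level was at least 112-fold lower, taking the limit that 0 counts over the group allow, 3 counts. The same library also held 6 counts of the basal keratin KRT5, which had 0 counts in the other 9 libraries. It held 17 of the immune cell marker CD68 and 6 of the endothelial marker VWF, each of which had at most 8 in any T24 library. The highest T24R2 counts of PTPRC, TP63, COL1A1 and GATA3 lay in other T24R2 libraries. The part of these marker counts in the CA9 reads of replicate 3 was not tested. CA12 (ENSG00000074410.14, chr15:63321378-63381846, minus strand), a related surface enzyme that is also driven by oestrogen receptor in breast tissue, was at 10.2, 9.99, 8.68, 10.1 and 11.2 CPM in T24 and had 1, 0, 3, 5 and 0 counts in T24R2. Its ratio was 60.6 (467 against 9 counts, exact 95% interval 31.6 to 133) and its fitted log2 fold change was -5.82 ± 0.33 (SE; adjusted p = 3.8e-19, edgeR). With so few T24R2 reads the log2 ratio of CA9 to CA12 per kilobase, 1.75 ± 0.25 for T24 and 1.30 ± 1.72 for T24R2 (SD over 5 libraries each, 0.5 counts added), could not be told apart between the lines (exact two-sided permutation p = 0.675, adjusted p = 0.746 over 3 ratios). None of 4 other carbonic anhydrases that could be tested was called by edgeR, by DESeq2 or by limma-voom, and 0 of them had an unadjusted p under 0.05 in any of these. Their log2 fold changes ran from -0.51 to -0.01. Of the 9 that were not tested, 7 had at most 3 counts in every library, and CA8 had 66 counts in T24 and 2 in T24R2.

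**Figure D2:**
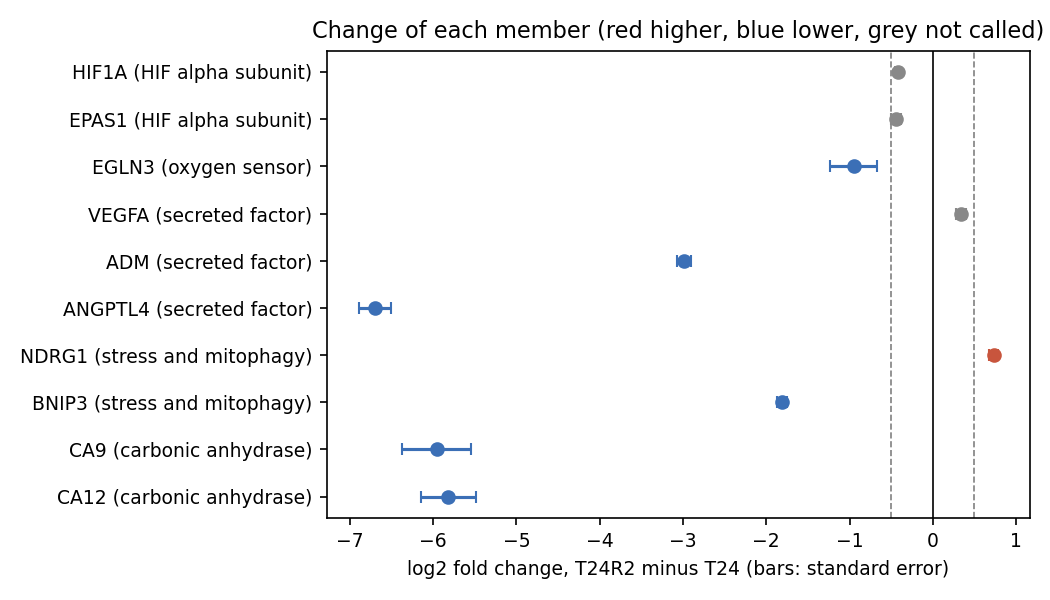
Log2 fold change of each hypoxia response gene, T24R2 minus T24, from edgeR's fit, with the standard error as bars and dashed lines at 0.5 on either side of 0. ANGPTL4, CA9 and CA12 lie between -6.70 and -5.82, ADM, BNIP3 and EGLN3 between -2.99 and -0.95, and HIF1A, EPAS1, VEGFA and NDRG1 between -0.44 and 0.73.

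Compared per kilobase of exon, the order of the 10 genes differed between the lines. The length is that of all annotated exon bases of a gene, such as 14431 for VEGFA, 12002 for NDRG1 and 1598 for CA9. It need not be the length of the transcripts made, so places within a line depend on the annotation. In T24, BNIP3 led at 67.2 ± 5.94 CPM per kilobase, followed by HIF1A at 60.1 ± 1.78, with overlapping ranges, and by ADM at 35.2 ± 2.30 (SD, n = 5 each). ANGPTL4 at 14.5, EPAS1 at 14.0 and NDRG1 at 13.2 CPM per kilobase came next, each overlapping its neighbour in the order, and VEGFA at 7.11, CA9 at 4.81, CA12 at 1.43 and EGLN3 at 0.417 followed without overlap. In T24R2, HIF1A led at 44.9 ± 1.93 CPM per kilobase, before NDRG1 at 21.8 ± 0.801 and BNIP3 at 19.2 ± 1.12 (SD, n = 5 each). EPAS1 at 10.3 and VEGFA at 8.97 CPM per kilobase overlapped, and ADM had moved to the sixth place at 4.43. EGLN3, ANGPTL4, CA9 and CA12 lay at the bottom, each overlapping the next, from 0.216 down to 0.0236 CPM per kilobase. In T24, ANGPTL4 was above 77.6% of all tested genes in level per kilobase, and in T24R2 it was above 3.37%. HIF1A kept a place above 95.3% of genes in T24 and 94.8% in T24R2.

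Among the genes that make and control HIF, calls were about as frequent as over all genes. Of 14 such genes, 13 were tested, 4 were called higher (24.9% of all tested genes were), 2 were called lower (26.5%) and 7 were not called, with a median log2 fold change of 0.06 beside 0.01 over all tested genes. ARNT, the beta partner of both alpha subunits, was at 41.7 ± 5.84 CPM in T24 and 43.6 ± 4.11 CPM in T24R2 and was not called. ARNT2, its close relative, rose from 1.37 ± 0.402 to 14.7 ± 1.11 CPM (log2 fold change 3.40 ± 0.18 SE). It could pass the filter on low counts only through T24R2, which favoured a higher call. HIF3A, the third alpha subunit, was not tested, with 16 counts in T24 and 0 in T24R2. Within the VHL ligase, the scaffold CUL2 rose 1.90 ± 0.05 on the log2 scale, from 47.9 ± 1.63 to 179 ± 8.64 CPM (SD, n = 5 each), while ELOB, an adaptor, fell by 0.52 and VHL, ELOC and RBX1 lay at -0.32, -0.24 and -0.29 without a call. Among the hydroxylases, HIF1AN, the asparagine hydroxylase that blocks coactivator binding, fell by 0.67, EGLN1 rose by 0.50 and EGLN2 was at 0.30 without a call. The coactivator EP300 rose by 0.92 on the log2 scale, its relative CREBBP lay at 0.47 and CITED2, which competes with HIF for them, at 0.02, neither called. The call of ELOB was lost in 4 of the 18 alternative fits, namely without TMM scaling, with upper-quartile scaling, at a mean of at least 100 counts and without T24R2 replicate 5.

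Most glycolytic enzymes under HIF control were lower in T24R2. Of 14 enzymes, all tested, 11 were called lower, where 26.5% of all tested genes were, and 3 were not called. Their median log2 fold change was -0.85, beside 0.01 over all tested genes. None was called higher by edgeR, DESeq2 or limma-voom, and 0 had an unadjusted p under 0.05 in that direction. ALDOC, an aldolase, fell from 29.3 ± 3.56 to 2.15 ± 0.625 CPM, LDHA, which turns pyruvate into lactate, from 2086 ± 196.6 to 495.2 ± 24.3 CPM and PGAM1, a phosphoglycerate mutase, from 525.4 ± 53.7 to 149.6 ± 6.34 CPM (SD, n = 5 each). Their log2 fold changes were -3.77 ± 0.15, -2.07 ± 0.05 and -1.81 ± 0.05 (SE). LDHA and PGAM1 have many processed pseudogenes, so their counts under unique mapping are less certain than those of ALDOC. The 3 not called, HK2, GPI and GAPDH, lay at -0.16, -0.37 and -0.48.

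A further list of 37 HIF targets outside glycolysis held 36 tested genes, of which 20 were called lower, 4 higher and 12 not called, where 26.5% and 24.9% of all tested genes were called lower and higher. The median log2 fold change of the list was -0.56, beside 0.01. This list and the glycolytic one were chosen with earlier results of these data known, so the shares only describe them. The 3 with the most negative log2 fold changes were STC1, SLC16A3 and LOX. STC1, a secreted glycoprotein, had 798 counts in T24 and 1 in T24R2, a ratio of 932 with an exact 95% interval of 167 to 3.69e+04. SLC16A3, the lactate exporter MCT4, fell from 441.4 ± 39.8 to 41.6 ± 3.34 CPM, and LOX, which cross-links collagen, from 93.8 ± 11.7 to 11.8 ± 1.8 CPM (SD, n = 5 each). The 4 called higher included RORA, a nuclear receptor, from 1.55 ± 0.506 to 26.6 ± 1.07 CPM, HMOX1, the haem oxygenase that is also induced by oxidative stress, from 13.1 ± 1.43 to 55.5 ± 5.80 CPM, and STC2, a relative of STC1, from 232.1 ± 13.1 to 508.2 ± 22.9 CPM. STC1 and STC2 thus moved apart, as BNIP3 and NDRG1 did. EPO, the erythropoietin gene, had at most 3 counts in every library. STC1 could pass the filter on low counts only through T24 and RORA only through T24R2, which favoured their calls.

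**Figure D3:**
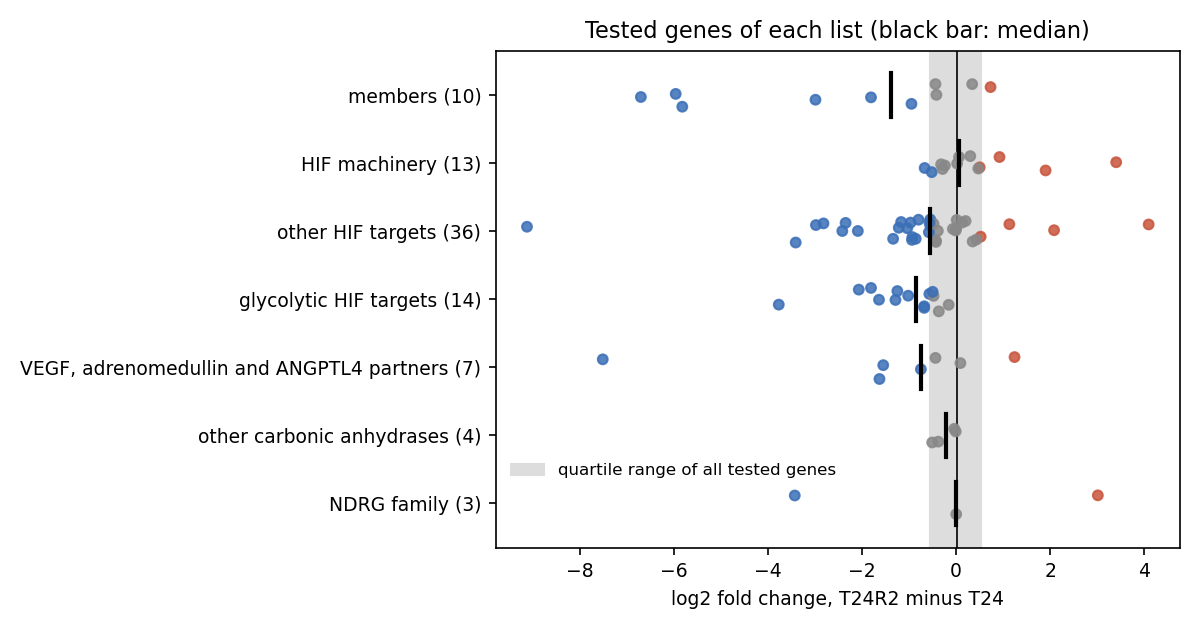
Log2 fold change, T24R2 minus T24, of the tested genes in each list, with the number tested in parentheses (red called higher, blue called lower, grey not called), a black bar at each list's median and a grey band from the lower to the upper quartile of all tested genes. The hypoxia response genes, their glycolytic relatives and the other HIF targets have medians of -1.38, -0.85 and -0.56, and the HIF machinery has one of 0.06.

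Of 17 relatives and receptors of VEGF, adrenomedullin and ANGPTL4, only 7 were tested, and 5 had at most 3 counts in every library. Among the 7, 4 were called lower, 1 higher and 2 not, beside 26.5% lower and 24.9% higher over all tested genes, and the median log2 fold change was -0.75, beside 0.01. ADM2, the sister peptide of adrenomedullin, had 417 counts in T24 and 2 in T24R2, a ratio of 244 with an exact 95% interval of 67 to 2.02e+03. It could pass the filter on low counts only through T24, which favoured a lower call. PGF and VEGFC, relatives of VEGFA, fell by 1.63 and 1.55 on the log2 scale, whereas VEGFA itself lay at 0.34. NRP2, a coreceptor for VEGF family ligands, rose from 18.9 ± 1.06 to 44.7 ± 2.71 CPM (SD, n = 5 each). The VEGF receptors FLT1, KDR and FLT4 had at most 8, 2 and 1 counts in any library, so neither line showed more than traces of them. In the NDRG family, NDRG2 rose by 3.01 from a low level, NDRG4 fell by 3.43 and NDRG3 was at 96.2 ± 3.15 CPM for T24 and 96.1 ± 3.32 CPM for T24R2 (SD over 5 libraries each), so the rise of NDRG1 was not shared by its whole family. NDRG2 could pass the filter on low counts only through T24R2.

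The genes around the members on the chromosome moved with some of them. Among the 20 nearest tested genes, 10 on each side, the median log2 fold change was -0.82 around ADM, with 13 called lower and 1 higher, and -0.73 around BNIP3, likewise with 13 lower and 1 higher. Around NDRG1 it was 0.83, with 11 called higher and 1 lower, and NDRG1 at 0.73 lay below 11 of its 20 neighbours. Around the other 7 genes the medians ran from -0.12 to 0.28. ADM fell more than all 20 of its neighbours, of which the nearest on each side, SBF2 and AMPD3, fell by 1.46 and 1.38. BNIP3 was below 19 of its 20, and its nearest neighbours were PPP2R2D at -0.39, not called, and ENSG00000273521, which fell by 0.93. NDRG1 had ENSG00000223697, which rose by 1.51, on one side and ST3GAL1, which fell by 1.07, on the other. ANGPTL4, CA9 and EGLN3 were lower than all 20 of their neighbours and CA12 than 19 of its 20. The part of these shifts of whole neighbourhoods in the changes of the members was not tested.

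**Figure D4:**
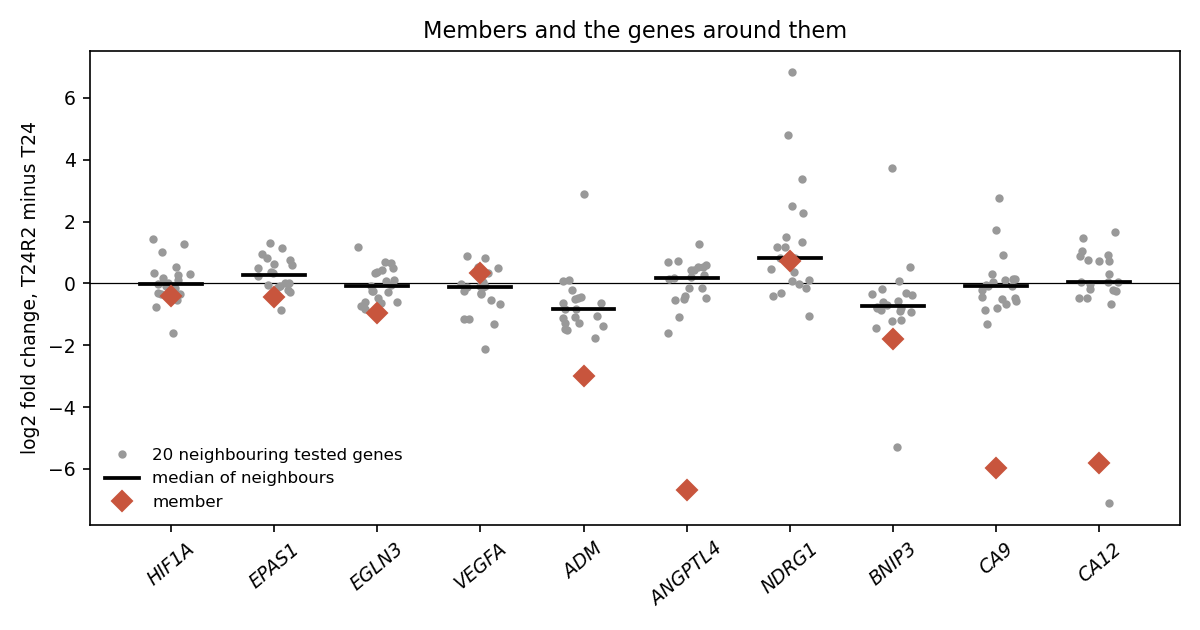
Log2 fold change, T24R2 minus T24, of each hypoxia response gene (red diamond) and of the 20 nearest tested genes (grey points, 10 on each side), with a black bar at the median of the neighbours. NDRG1 lies near the median of its own neighbours, ADM and BNIP3 lie below neighbours that are themselves mostly lower, and ANGPTL4, CA9 and CA12 lie far below neighbours centred near 0.

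HIF1A, VEGFA and CA9 overlap exons of an antisense gene, which matters because the counting used a strand setting while the sources used here do not say how the kit marks strand, so such reads cannot be told apart. CA9 shared 571 bases, 35.7% of its exon length, with ARHGEF39, which had a mean of 440 counts in T24 and 208 in T24R2. CA9 had 0 counts in 4 of the 5 T24R2 libraries, and the part of such shared bases in its counts was not tested. HIF1A shared 2.58% of its exon length with HIF1A-AS1, and VEGFA shared 1.30% with ENSG00000272114. Taking the counts of these partners off changed the log2 ratio of mean levels from -0.42 to -0.40 for HIF1A and from 0.34 to 0.42 for VEGFA. The other 7 members had no such overlap.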

How the data were processed

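RNA of T24 and T24R2 cells was sequenced in 10 libraries, 5 per line, mapped by the authors with STAR 2.7.0 to hg38, filtered with SAMtools 1.10 to uniquely mapped reads without duplicates and counted with featureCounts 2.0.1 on GENCODE release 39 with strand option 1. The deposited values are raw counts per gene, not normalized, and replicates were not pooled. Totals ran from 9257843 to 10840954 counts per library, so a gene with a few counts has a wide counting error, and intervals and floors of 3 counts cover counting error only.

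From these counts, genes were filtered with filterByExpr (16181 of 61533 kept), scaled by TMM and tested with edgeR 4.0.16 (quasi-likelihood, line as the only term, all 10 libraries, R 4.3.3). P-values were adjusted by Benjamini-Hochberg over all tested genes, and a call needed an adjusted p under 0.05 and a log2 fold change over 0.5 in size. This was tested on simulated data in which far fewer genes changed than were called here, and by less than the largest falls. It does not cover a shift of so many genes. Groups were taken from the sample titles. Ratios of 2 genes used counts per exon kilobase with 0.5 counts added and an exact two-sided permutation test over 252 arrangements. Intervals are exact at 95%. DESeq2 1.42.0 with and without apeglm 1.24.0, limma 3.58.1, other scalings, filters and fold minimums, a replicate block and leaving out each library were the alternatives. Named genes are the 10 members, the HIF machinery, of each further list the 3 largest called rises and falls, the nearest neighbours of a member whose 20 neighbours had a median past 0.5 in size, and genes overlapping a member on the opposite strand; any other gene in the text was chosen after its values were seen. The members and lists were chosen with earlier results of these data known. All 131 listed genes matched 1 row each. Replicate numbers did not pair the samples, since same-numbered libraries of the 2 lines had correlations of -0.021 to 0.0155 in their deviations. Pairs of replicates differed by more than sampling noise, with a chi-square per degree of freedom from 2.01 to 7.04, and none was counted as a repeat. Promoter windows came from RefSeq on GRCh38.p14, and gene coordinates from the count tables on hg38.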

Additional observations from a re-analysis of the deposited data

Results flagged for a closer look

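Of 26 sets of 5 libraries examined, 4 held a library that stood apart by Dixon's test at the 95% level, where chance gives about 1.3. EGLN3 in T24 replicate 2 was at 5.47 CPM, while the other T24 libraries ran from 2.28 to 2.63 CPM. The log2 ratio of EGLN3 to EGLN1 in the same library was -2.18, which shares the EGLN3 value, and its log2 ratio of EPAS1 to HIF1A was -2.03, the highest of the T24 libraries. T24 replicate 2 was also the highest T24 library for BNIP3, at 299.2 CPM, and for ANGPTL4, at 39.8 CPM. CA9 in T24R2 replicate 3 was at 0.576 CPM, while it had 0 counts in the other T24R2 libraries.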

How the results depend on the processing

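Of the 7 calls among the hypoxia response genes, all 7 were kept under every alternative except a mean of at least 100 counts, where EGLN3, CA9 and CA12 were not tested and 3 members were called lower, and a fold change minimum of 1, where NDRG1 was lost and EGLN3 too by its fold. At that minimum 0 members were called higher, and with no fold minimum 2 were. Over all genes, 4027 higher and 4282 lower calls became 5206 and 3431 without TMM scaling. That setting moved the median log2 fold change from 0.01 to 0.18 (0.09 with upper-quartile scaling). Higher and lower calls were 2350 and 2641 at a mean of at least 100 counts. They were 1918 and 2293 past a log2 fold change of 1, and 6128 and 6084 with no fold minimum. The fold changes of HIF1A ran from -0.44 to -0.26, of EPAS1 from -0.46 to -0.28 and of VEGFA from 0.28 to 0.50 over the alternatives. HIF machinery genes called lower numbered 1 without scaling, 1 with upper-quartile scaling, 1 at a mean of at least 100 counts, 0 past a log2 fold change of 1 and 5 with no minimum, and 2 were called higher past 1. Past a log2 fold change of 1, other HIF targets had 11 lower and glycolytic targets 7. Without TMM scaling these lists had 16 and 9 lower, and with upper-quartile scaling 17 and 9. With limma-voom the glycolytic targets had 10 lower. With no count filter, 7 relatives and receptors and 1 other carbonic anhydrase were called lower, and at a mean of at least 100 counts the NDRG family had 0 calls in either direction. With each library left out in turn, members called higher stayed at 1 and lower at 6, the HIF machinery had 1 to 2 lower (1 without T24R2 replicate 5), other carbonic anhydrases 0 to 1 (1 without T24R2 replicate 2), the EPAS1 to HIF1A difference ran from -0.05 to 0.03, above 0 without T24R2 replicate 2 or 3, and the CA9 to CA12 difference from -0.88 to 0.21, above 0 without T24R2 replicate 4. A replicate block, whose numbers do not pair the samples, gave 3979 higher and 4261 lower calls, and for the EGLN3 to EGLN1 difference of -1.35 an exact permutation p of 0.0625, the smallest that pairing of 5 allows. The causes of these shifts were not tested, beyond the smaller sets of genes tested. CA9 counts could not be corrected for ARHGEF39, which holds more counts than CA9. Depth limits ANGPTL4, CA9 and CA12 in T24R2, where a few reads set each level.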
